A study of Mus musculus with 10 samples.

Results

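The 10 genes described here encode proteins known as substrates of RSK kinases or as proteins acting just below them: Cebpb, Creb1, Tsc2, Eef2k, Eif4b, Gsk3b, Ybx1, Pdcd4, Sos1 and Rps6. They were chosen by name for what their proteins do, out of 26312 genes in the table, with earlier results of these data known. All 10 had a mean of at least 10 normalized read counts and were among the 15180 genes tested. RNA was sequenced in 10 libraries of 50000 cells each, sorted from mammary glands of C57BL/6J mice aged 12 weeks for high EpCAM, low CD49f, Sca1 and no CD49b. The 4 groups were RSK2(+/+) mice at estrus (WT estrus, 3 libraries), RSK2(-/-) mice at estrus (KO estrus, 3), RSK2(+/+) mice at diestrus (WT diestrus, 2) and RSK2(-/-) mice at diestrus (KO diestrus, 2). The genotype entry names no promoter, Cre driver or tissue limit for the RSK2 loss, and the labels do not say whether a library came from 1 mouse or from several. The p-values therefore measure the spread between libraries, which may be technical.

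RSK kinases are switched on by ERK at the end of the Ras, RAF and MEK cascade. They act by phosphorylating proteins: transcription factors such as CREB and C/EBP beta, the TSC2 brake on mTORC1, and several parts of the machinery that starts and extends protein synthesis. In the mammary gland, C/EBP beta is known for its part in the fate and growth of luminal cells, and the luminal cells that carry receptors for estrogen and progesterone pass signals of the estrous cycle on to their neighbours. The libraries measured RNA only and hold no measure of protein or of phosphorylation.

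The libraries held 14108057 to 15307238 normalized counts, from an estimated 12.0 to 16.7 M reads assigned to genes. Summed counts of the 13 hormone-sensing luminal markers (Esr1, Pgr, Krt8 and others) ran from 345823 to 455761 per library, against 6672 to 12396 for 10 luminal progenitor markers and 535 to 2214 for 10 basal markers. The hormone-sensing list holds Epcam and Ly6a (Sca1), and the progenitor list holds Itga2 (CD49b). The sort itself used these proteins, so part of this contrast was set by the sort. Summed counts of 10 macrophage markers were 340 to 664 at WT estrus, 631 to 924 at KO estrus, 629 to 735 at WT diestrus and 466 to 471 at KO diestrus. For the 4 lymphocyte markers with a row in the table they were 63 to 91, 138 to 187, 113 to 131 and 88 to 106 in the same order. Fibroblast markers (7 genes) ran from 654 to 1616 at WT estrus, from 108 to 3101 at KO estrus, from 588 to 651 at WT diestrus and from 101 to 118 at KO diestrus. Erythroid markers (3 with a row) ran from 53 to 421 at WT estrus and from 139 to 357 at KO estrus. At diestrus they ran from 58 to 132 in WT and from 313 to 450 in KO. Over all libraries, 5 endothelial markers summed to 23 to 101, and 2 adipocyte markers with a row to 1 to 54. Every row of the table was above 0 in some library, so no marker with a row could be at 0 throughout. Adipoq, Plin1, Lep, Cd3e, Cd8a, Hbb-bs and Hbb-bt had no row. By the limma test between genotypes at estrus, the 1 tested lymphocyte marker was higher in KO. No other listed marker was called, against 4.20% of all tested genes. Between stages in KO, 2 of 7 tested macrophage markers were higher at estrus. Of 13 hormone-sensing markers 2 were higher and 1 lower, and of 9 luminal progenitor markers 1 was higher and 1 lower. Over all tested genes 16.6% were called, and no marker of the other lists. The part of these cell types in the results below was not tested. In bulk RNA of this kind, fewer cells of a type and less RNA per cell cannot be told apart.

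Rps6ka3, the gene of RSK2, was not lower in the libraries labelled RSK2(-/-). It had 136, 128 and 137 counts at WT estrus, 158, 156 and 164 at KO estrus, 165 and 139 at WT diestrus, and 156 and 165 at KO diestrus. The estrus difference was 0.25 ± 0.16 on the log2 scale (SE; limma adjusted p = 0.35) and the diestrus difference was 0.08 ± 0.20 (limma adjusted p = 0.996). A gene-level count need not drop when part of a gene is deleted, so these values do not check the labels, and groups are called here as the labels name them. WT also appears in the title of each RSK2(-/-) library, beside the prefix KO. Groups follow that prefix and the genotype entry, and every difference between KO and WT rests on these labels. On the first principal component, with 29.3% of the variance, the KO estrus libraries lay at 37.4 to 55.8 and the other 7 at -33.1 to -5.50.

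Compared per kilobase of exon, the 10 genes spanned a wide range. Rps6, a protein of the small ribosomal subunit, stood highest with 8227 normalized counts per kb (mean of 10 libraries), above 99.2% of the tested genes. Ybx1 (1754), Cebpb (1431) and Eif4b (603) followed, above 86.6% or more of the tested genes. Tsc2 (250.3), Pdcd4 (191) and Gsk3b (102.3) lay in the middle. Eef2k (43.6), Creb1 (31.6) and Sos1 (27.0) were lowest, and still above 24.3% or more. Read library by library, Ybx1 was above Cebpb in 9 of 10 libraries, Tsc2 above Pdcd4 in 8, Eef2k above Creb1 in 7 and Creb1 above Sos1 in 8, so the order of these neighbours was not the same throughout. The other neighbours kept their order in all 10 libraries.

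**Figure D1:**
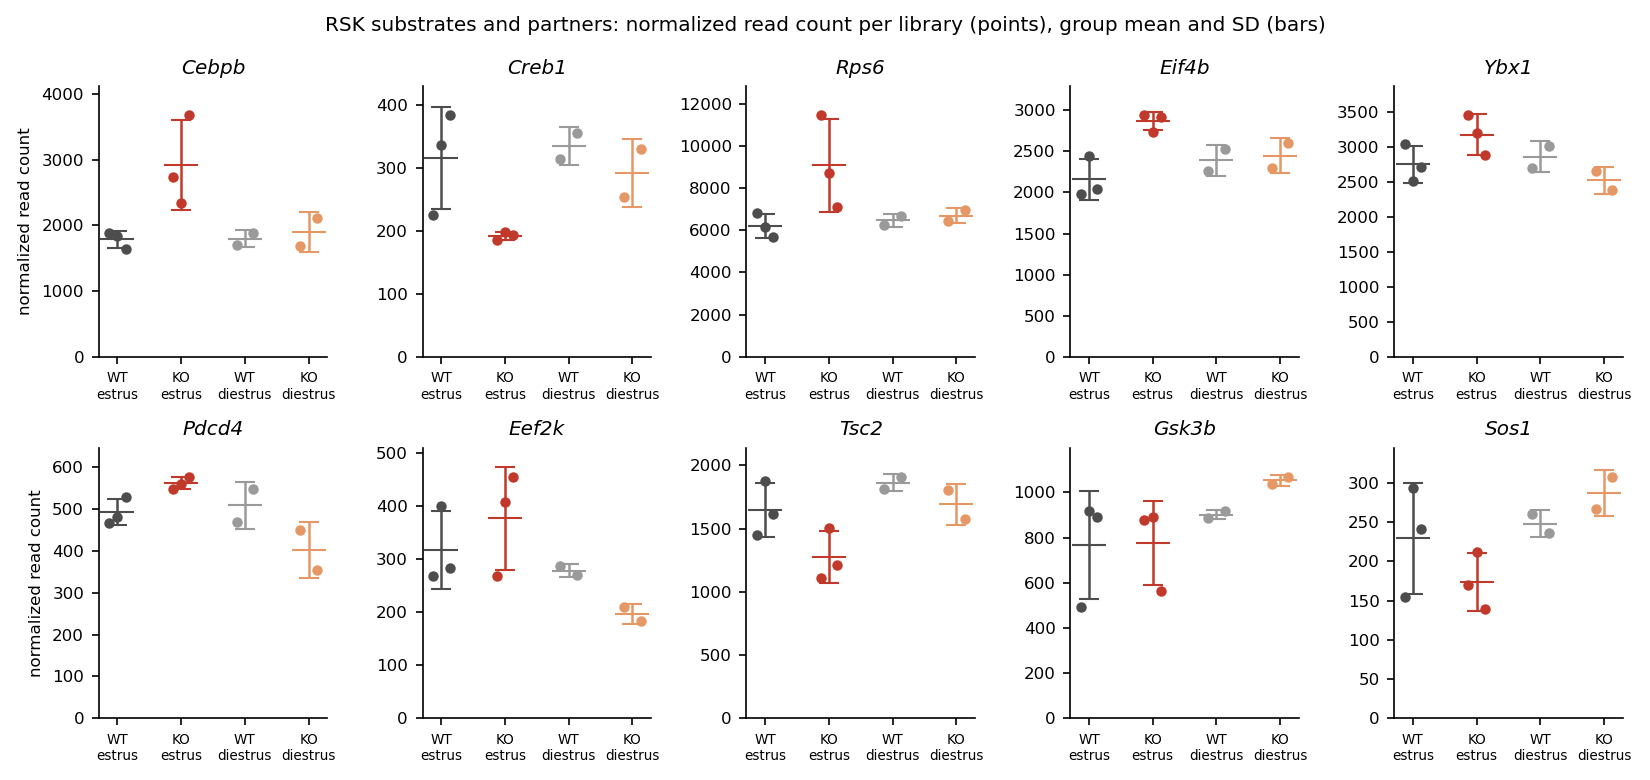
Normalized read count of the 10 genes (y axis, from 0, a separate scale for each gene) in each library, by group (x axis), with points for libraries and bars for the group mean and SD. All 3 KO estrus libraries of Cebpb (2340 to 3677) lie above the other 7 (1640 to 2114), and all 3 of Creb1 (185 to 198) lie below the other 7 (226 to 384). How many of all tested genes have KO estrus beyond the other 7 was not counted.

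Among the transcription factors, Cebpb was higher in KO than in WT at estrus. Cebpb encodes C/EBP beta, a leucine zipper factor, and lies on chr2:167688915-167690418 (GRCm38, plus strand, ENSMUSG00000056501). Normalized counts were 1887, 1839 and 1640 at WT estrus, 2742, 2340 and 3677 at KO estrus, 1706 and 1888 at WT diestrus, and 1682 and 2114 at KO diestrus. The 3 KO estrus libraries were the highest of all 10, and the remaining groups overlapped each other. The estrus means were 1789 ± 131 and 2920 ± 686 (SD, n = 3 each). The log2 difference, always on the scale log2(value + 1), was 0.68 ± 0.17 (SE), 1.61-fold with a 95% interval of 1.24 to 2.08, and passed the threshold with a limma adjusted p of 0.0459. At diestrus the difference was 0.07 ± 0.21 (95% interval -0.38 to 0.53, limma adjusted p = 0.996).

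The estrus call of Cebpb lies close to the threshold of 0.05. With 1 library left out it held only without KO estrus 2, where the difference was 0.83 (limma adjusted p = 0.0353). In the other 9 such fits the adjusted p was 0.0531 to 0.123, with differences of 0.50 (without KO estrus 3) to 0.72. Cebpb shares 908 bases of its locus with Tmem189, on the opposite strand, and the sources used here do not say whether reads were counted by strand. Tmem189 had 4151, 3236 and 2320 counts at WT estrus against 3785, 3450 and 4088 at KO estrus, overlapping groups with a difference of 0.26 ± 0.20 (limma adjusted p = 0.458).

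The promoter of Cebpb is shown because CREB, another RSK substrate among the 10, binds the CRE motif TGACGTCA or its core TGACG, which is part of it. The sequence, from RefSeq on GRCm38.p6, is the 250 bases before the annotated start, chr2:167688665-167688914 on the plus strand, and capitals mark TGACG or its reverse complement CGTCA.
Cebpb promoter: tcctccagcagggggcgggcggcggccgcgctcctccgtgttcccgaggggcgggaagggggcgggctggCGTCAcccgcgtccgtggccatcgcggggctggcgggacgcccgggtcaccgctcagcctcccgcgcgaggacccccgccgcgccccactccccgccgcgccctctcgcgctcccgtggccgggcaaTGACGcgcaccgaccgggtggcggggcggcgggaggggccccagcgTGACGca
The 3 matches lie 180 to 176, 53 to 49 and 7 to 3 bases before the start. Over windows from 250 bases before to 50 after the start, searched on both strands, 20.8% of 32851 RefSeq promoters held at least 1 core and 1.03% held 3 or more. All 10 genes matched, with 13 promoters: 3 of the 13 held a core (those of Cebpb, Eef2k and Rps6) and 0 held the full CRE, which 1.79% of all promoters held. The C/EBP motif TTGCNNAA, also searched on both strands, was in 1 of the 13 (Tsc2) and in 10.8% of all. A match of letters is a description of the sequence and not a measured binding site.

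Creb1 had lower counts in every KO estrus library than in any other library, and this did not pass the test. It encodes CREB, the leucine zipper factor that binds cAMP response elements, and lies on chr1:64532645-64604548 (GRCm38, plus strand, ENSMUSG00000025958). Counts were 226, 337 and 384 at WT estrus, 185, 198 and 193 at KO estrus, 314 and 356 at WT diestrus, and 254 and 330 at KO diestrus. The WT libraries spread widely at estrus (316 ± 81.1, SD) and the KO libraries narrowly (192 ± 6.56, SD). The difference at estrus was -0.68 ± 0.20 (SE), 0.624-fold with a 95% interval of 0.46 to 0.846 (unadjusted p = 0.0056, limma adjusted p = 0.067). At diestrus, where the groups overlapped, it was -0.21 ± 0.25 (limma adjusted p = 0.996).

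Of the proteins of translation, Rps6 is the best known phosphorylation target of the S6 kinases and RSK. Rps6 (chr4:86854660-86857412, minus strand, ENSMUSG00000028495) had 6824, 6140 and 5690 counts at WT estrus, 11461, 8702 and 7083 at KO estrus, 6260 and 6679 at WT diestrus, and 6453 and 6942 at KO diestrus. The KO estrus libraries were the 3 highest, and KO estrus 3 lay only just above the WT range. The difference at estrus was 0.52 ± 0.17 (SE; 1.44-fold, 95% interval 1.10 to 1.87, unadjusted p = 0.0111, limma adjusted p = 0.0892) and at diestrus 0.05 ± 0.21. Without KO estrus 3 the estrus difference was 0.69 and passed (limma adjusted p = 0.0356), and without KO estrus 1 it was 0.34 (limma adjusted p = 0.23). The values of Rps6 are uncertain because near copies can share its reads: Rps6-ps4 had 2439, 2194 and 2024 counts at WT estrus and 4427, 3173 and 2694 at KO estrus.

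Eif4b encodes a cofactor of the eIF4A helicase, which unwinds mRNA ahead of the scanning ribosome. Eif4b (chr15:102073773-102097173, plus strand, ENSMUSG00000058655) had 1983, 2449 and 2044 counts at WT estrus, 2943, 2739 and 2915 at KO estrus, 2258 and 2525 at WT diestrus, and 2302 and 2598 at KO diestrus. Its 3 KO estrus libraries were above the other 7, and close together (2866 ± 111 against 2159 ± 253 at WT estrus, SD). The difference of 0.41 ± 0.13 (SE; 1.33-fold, 95% interval 1.10 to 1.62) did not pass the threshold at estrus (unadjusted p = 0.0077, limma adjusted p = 0.0762), and at diestrus it was 0.03 ± 0.16.

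Pdcd4 encodes an inhibitor of eIF4A, which is marked for degradation after phosphorylation. Pdcd4 (chr19:53892231-53929860, plus strand, ENSMUSG00000024975) had 467, 481 and 527 counts at WT estrus, 548, 560 and 577 at KO estrus, 469 and 547 at WT diestrus, and 449 and 354 at KO diestrus. The estrus groups did not overlap and the gap between them was small, with a difference of 0.19 ± 0.14 (SE; 95% interval -0.11 to 0.50, limma adjusted p = 0.416). At diestrus the sign was the opposite, -0.34 ± 0.17 (limma adjusted p = 0.865), also without overlap.

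Eef2k encodes the kinase that slows elongation by phosphorylating eEF2, and RSK is known to inhibit it. Eef2k (chr7:120842831-120907450, plus strand, ENSMUSG00000035064) had 267, 400 and 283 counts at WT estrus, 268, 407 and 455 at KO estrus, 287 and 269 at WT diestrus, and 210 and 183 at KO diestrus. The estrus groups overlapped (0.24 ± 0.22, limma adjusted p = 0.526), and at diestrus both KO libraries were below both WT libraries (-0.50 ± 0.27, limma adjusted p = 0.885). The antisense gene Gm15774 spans 9790 bases of the locus with a mean of 31.0 counts.

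Ybx1 encodes YB-1, a cold shock protein that binds mRNA and DNA. Ybx1 (chr4:119277981-119294604, minus strand, ENSMUSG00000028639) had 3037, 2510 and 2710 counts at WT estrus, 3455, 3194 and 2880 at KO estrus, 2700 and 3017 at WT diestrus, and 2659 and 2388 at KO diestrus. The estrus ranges overlapped and the diestrus ranges did not. The difference was 0.21 ± 0.13 at estrus (95% interval -0.08 to 0.49, limma adjusted p = 0.347) and -0.18 ± 0.16 at diestrus (limma adjusted p = 0.975).

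Tsc2, Gsk3b and Sos1 encode regulators of growth signalling, and none of them passed the test in any comparison. Tsc2, a GTPase-activating protein that holds mTORC1 in check (chr17:24595816-24632630, minus strand, ENSMUSG00000002496), had 1448, 1872 and 1613 counts at WT estrus, 1112, 1502 and 1212 at KO estrus, 1815 and 1911 at WT diestrus, and 1802 and 1578 at KO diestrus. Its estrus ranges overlapped through KO estrus 2 alone, and the difference was -0.37 ± 0.15 (SE; 95% interval -0.70 to -0.04, unadjusted p = 0.0292, limma adjusted p = 0.144). The gene shares 693 bases with Pkd1 on the opposite strand.

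Gsk3b, a kinase of glycogen and beta-catenin control that RSK phosphorylation inhibits (chr16:38089001-38246084, plus strand, ENSMUSG00000022812), had 491, 918 and 892 counts at WT estrus, 878, 889 and 562 at KO estrus, 887 and 916 at WT diestrus, and 1035 and 1070 at KO diestrus. A single library of each genotype was low at estrus, and the difference of 0.04 ± 0.24 had a 95% interval of -0.48 to 0.57. Sos1, the exchange factor that loads Ras with GTP and is phosphorylated in negative feedback (chr17:80393751-80480453, minus strand, ENSMUSG00000024241), had 154, 294 and 241 counts at WT estrus, 170, 212 and 139 at KO estrus, 260 and 236 at WT diestrus, and 266 and 308 at KO diestrus. The estrus groups overlapped and differed by -0.37 ± 0.24 (95% interval -0.89 to 0.15, limma adjusted p = 0.351), and at diestrus both KO libraries were above both WT libraries (0.21 ± 0.29).

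Counted together at estrus, 1 of the 10 genes passed the limma test between genotypes, against 4.20% of all tested genes (637 of 15180, of which 191 were higher and 446 lower in KO, against 271 and 303 with libraries scaled to equal totals and 397 and 423 with quantile normalization). At an unadjusted p under 0.05 there were 5 of the 10 (Cebpb, Creb1, Eif4b, Rps6 and Tsc2), against 25.8% of all. In 5 of the 10 the KO and WT libraries did not overlap (Cebpb, Rps6, Eif4b and Pdcd4 higher, Creb1 lower), against 26.0% of all tested genes. In these 5 the KO estrus libraries also lay beyond all diestrus libraries. The share of all tested genes that do so was not counted. The median difference of the 10 was 0.20, against -0.01 over all tested genes.

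At diestrus 0 of the 10 passed the limma test, against 0.0395% of all genes (6 genes), and 0 had an unadjusted p under 0.05, against 5.92% of all. The groups of 2 libraries did not overlap in 6 of the 10 (Gsk3b and Sos1 higher in KO, Eef2k, Ybx1, Tsc2 and Pdcd4 lower), against 43.1% of all tested genes. The largest difference was that of Eef2k, and the 95% interval of each of the 10 included 0. Averaged over both stages, 0 of the 10 passed the limma test, against 0.665% of all genes. At an unadjusted p under 0.05 there were 3 of the 10, against 14.7% of all: Cebpb (0.38 ± 0.13, limma adjusted p = 0.24), Creb1 (-0.44 ± 0.16, limma adjusted p = 0.241) and Eif4b (0.22 ± 0.10, limma adjusted p = 0.336).

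**Figure D2:**
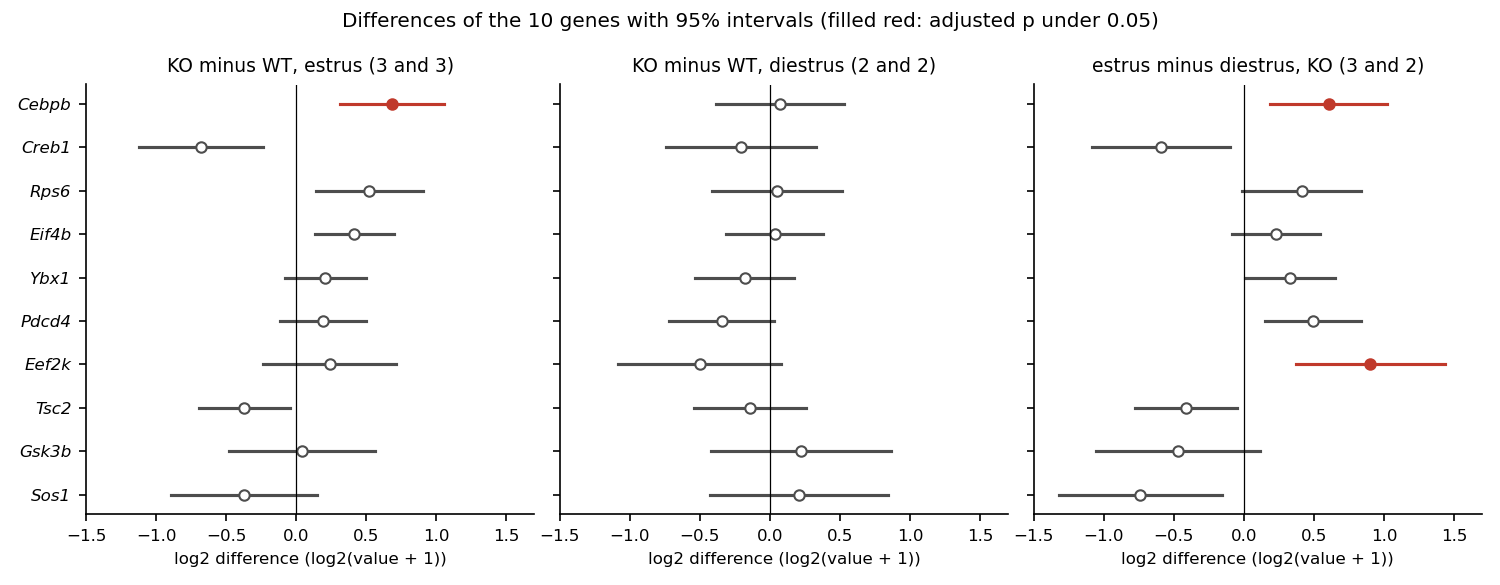
Log2 differences of the 10 genes (x axis, log2(value + 1) scale) with 95% intervals as bars, for KO minus WT at estrus, KO minus WT at diestrus, and estrus minus diestrus in KO, with the number of libraries above each panel. Filled red points passed the limma test: Cebpb in the first and last panels and Eef2k (0.90) in the last.

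Within the KO genotype, Eef2k and Cebpb were higher at estrus than at diestrus. Eef2k, with 268, 407 and 455 counts at KO estrus against 210 and 183 at KO diestrus, differed by 0.90 ± 0.24 (SE; 1.87-fold, 95% interval 1.29 to 2.70, limma adjusted p = 0.0291). Cebpb differed by 0.60 ± 0.19 (1.52-fold, 95% interval 1.14 to 2.03, limma adjusted p = 0.0488). Pdcd4 (0.49 ± 0.16, limma adjusted p = 0.0514) lay just outside the threshold, and Sos1 (-0.74 ± 0.27, limma adjusted p = 0.076) and Creb1 (-0.59 ± 0.23, limma adjusted p = 0.0896) further out. The remaining differences were -0.41 ± 0.17 for Tsc2, -0.47 ± 0.27 for Gsk3b, 0.33 ± 0.15 for Ybx1, 0.41 ± 0.19 for Rps6 and 0.23 ± 0.14 for Eif4b. This comparison and the one between genotypes at estrus share the KO estrus libraries.

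The 2 calls stood against 16.6% of all tested genes in this comparison (1165 higher and 1359 lower at estrus). In 10 of the 10 genes the KO estrus and KO diestrus libraries did not overlap, 6 higher and 4 lower at estrus, and the same held for 51.0% of all tested genes. Both calls depended on single libraries. The limma adjusted p of Eef2k was 0.103 without KO diestrus 1 and 0.212 without KO diestrus 2, where its difference was 0.80, and it was also not called without KO estrus 2 or KO estrus 3. Cebpb was called in 2 of the 10 fits with a library left out, with differences from 0.43 (without KO estrus 3) to 0.77 (without KO diestrus 2).

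In WT, 0 of the 10 differed between estrus and diestrus by the limma test and 0 had an unadjusted p under 0.05, against 0% of all tested genes called and 3.87% (588 genes) at that unadjusted p. The differences of the 10 in WT ran from -0.29 (Gsk3b) to 0.16 (Eef2k). The genotype by stage interaction, which tests whether the genotype difference itself changed with stage, passed the limma test in 0 of the 10 and in 0% of all tested genes. At an unadjusted p under 0.05 it held 2 of the 10, Pdcd4 (0.54 ± 0.22, limma adjusted p = 0.319) and Cebpb (0.61 ± 0.27, limma adjusted p = 0.333), against 14.2% of all. For Eef2k the interaction was 0.74 ± 0.34 (limma adjusted p = 0.359). A stage dependence of the genotype difference was therefore not shown for any of the 10.

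The estrus differences moved with gene length. Over all tested genes of known length, the median difference between genotypes at estrus was 0.19 for 5153 genes under 2 kb of exon, -0.07 for 7004 genes of 2 to 5 kb, and -0.20 for 2989 genes of 5 kb and over. Rps6, Cebpb and Ybx1 are in the first class (0.52, 0.68 and 0.21), Eif4b and Pdcd4 in the second (0.41 and 0.19), and Creb1, Tsc2, Eef2k, Gsk3b and Sos1 in the last (-0.68, -0.37, 0.24, 0.04 and -0.37). At diestrus the 3 class medians were -0.03, 0.01 and 0.01. The slope of a library's values per doubling of length was -0.119 to -0.0325 in the KO estrus libraries and -0.0283 to 0.0594 in the other 7.

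**Figure D3:**
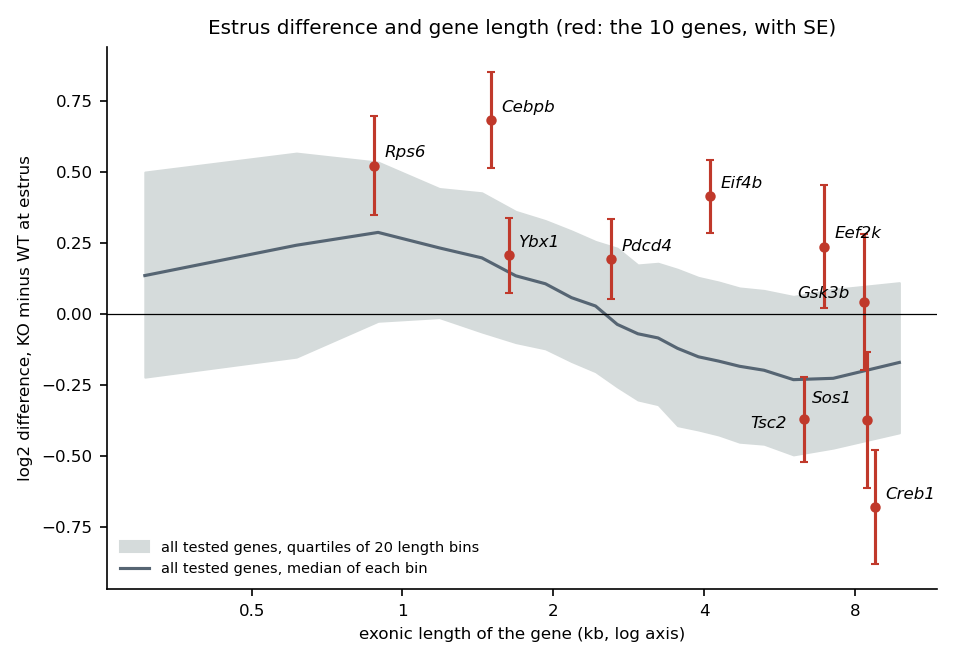
Log2 difference between KO and WT at estrus (y axis) against exonic length in kb (log axis), with red points and SE bars for the 10 genes, and a line and band for the median and quartiles of all tested genes in 20 length bins. Rps6 and Ybx1 lie inside the band, while Cebpb, Eif4b and Eef2k lie above it and Creb1 lies below it.

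With each library's smooth trend on length and GC content removed, 0 of the 10 passed at estrus, against 201 of 15146 genes tested. The difference of Cebpb was then 0.40 ± 0.17 (limma adjusted p = 0.213), that of Creb1 -0.39 ± 0.15 (limma adjusted p = 0.181) and that of Rps6 0.18 ± 0.15 (limma adjusted p = 0.508). Eif4b moved the other way, to 0.51 ± 0.12 (limma adjusted p = 0.063). Between stages in KO, 1386 of the 15146 genes were called in this fit. There Eef2k kept its call at 1.15 ± 0.23 (limma adjusted p = 0.0154). Pdcd4 gained one at 0.60 ± 0.15 (limma adjusted p = 0.0342). Cebpb lost its call at 0.29 ± 0.19 (limma adjusted p = 0.349).

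The other genes around RSK were read from 9 lists, which hold 151 genes besides the 10, 143 of them tested, with some genes on more than one list. At estrus 7 of the 143 were higher and 1 lower in KO, which is 5.59% against 4.20% of all tested genes. Without the list of 40S ribosomal proteins, 3 of 112 were higher and 1 lower, which is 3.57%. In the ERK cascade and RSK kinases, 1 of 21 passed, with a list median of -0.09. It was Mapk3, the gene of ERK1, with 883, 801 and 749 counts at WT estrus and 1356, 1160 and 1161 at KO estrus (0.59 ± 0.15, limma adjusted p = 0.045). The Mapk3 groups did not overlap, and with 1 library left out the list gave 1 higher call without WT estrus 1 or without KO estrus 3 and 0 in the other 8 fits.

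Other proteins described as RSK substrates gave 0 calls of 24 tested (median 0.05), with Fos, the immediate early factor, at 0.55 ± 0.23 and Nfkbia, the NF-kappa-B inhibitor, at 0.16 ± 0.20. The TSC and mTORC1 list gave 0 of 16 (median -0.05), with Akt1 at -0.05 and Rheb, the GTPase that TSC2 acts on, at -0.18. Lists of the partners of the transcription factors also held no call. The C/EBP family and partners gave 0 of 8 (median 0.08; Atf4 0.03, Trib1 0.13) and the CREB family, coactivators and early targets 0 of 20 (median 0.13; Fos as above, Dusp1 0.02). The GSK3 and beta-catenin destruction complex gave 0 of 9 (median -0.04, with Ctnnb1 -0.27 and Csnk1a1 -0.04). The Y-box and cold shock proteins gave 0 of 6 (median -0.06, with Carhsp1 -0.05). The GSK3 list holds Btrc and not Fbxw11, which is counted in the next list.

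The list of cap-binding and elongation machinery, which also holds the ubiquitin ligase genes Btrc and Fbxw11, gave 2 higher and 1 lower of 17. Its median was -0.08, its range was -0.91 to 0.79, and 6 of the 17 differences were above 0. Eef2, the elongation factor that the Eef2k kinase phosphorylates, had 16931, 17099 and 15326 counts at WT estrus and 37253, 27506 and 22613 at KO estrus (0.79 ± 0.19, limma adjusted p = 0.045). Eef1b2, an exchange factor of elongation factor 1, was higher by 0.66 ± 0.16 (limma adjusted p = 0.046). Fbxw11, a beta-TrCP protein of the ubiquitin ligase that marks PDCD4 for degradation, was lower, with 7293, 8664 and 8522 counts against 3038, 5362 and 5003 (-0.91 ± 0.20, limma adjusted p = 0.035). The groups of these genes did not overlap. With 1 library left out the list gave no higher call in 9 of 10 fits and 5 without KO estrus 3, and the lower calls went to 0 in 7 of 10. With the length and GC trend removed there was no call and the list median was 0.16.

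Of the 31 genes of the 40S subunit beside Rps6, 4 were higher at estrus and none lower by the limma test: Rps20 (0.83 ± 0.17), Rps16 (0.78 ± 0.20), Rps4x (0.78 ± 0.19) and Rps19 (0.76 ± 0.18). All 31 differences were above 0, with a median of 0.71 and a range of 0.48 to 0.89. Rps6 ranked 30 of 32 among them. The number called moved from 0 to 31 when a library was left out, with 31 called without KO estrus 3 and a list median of 0.45 without KO estrus 1. With the length and GC trend removed, 1 of the 31 was called and the median was 0.51.

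**Figure D4:**
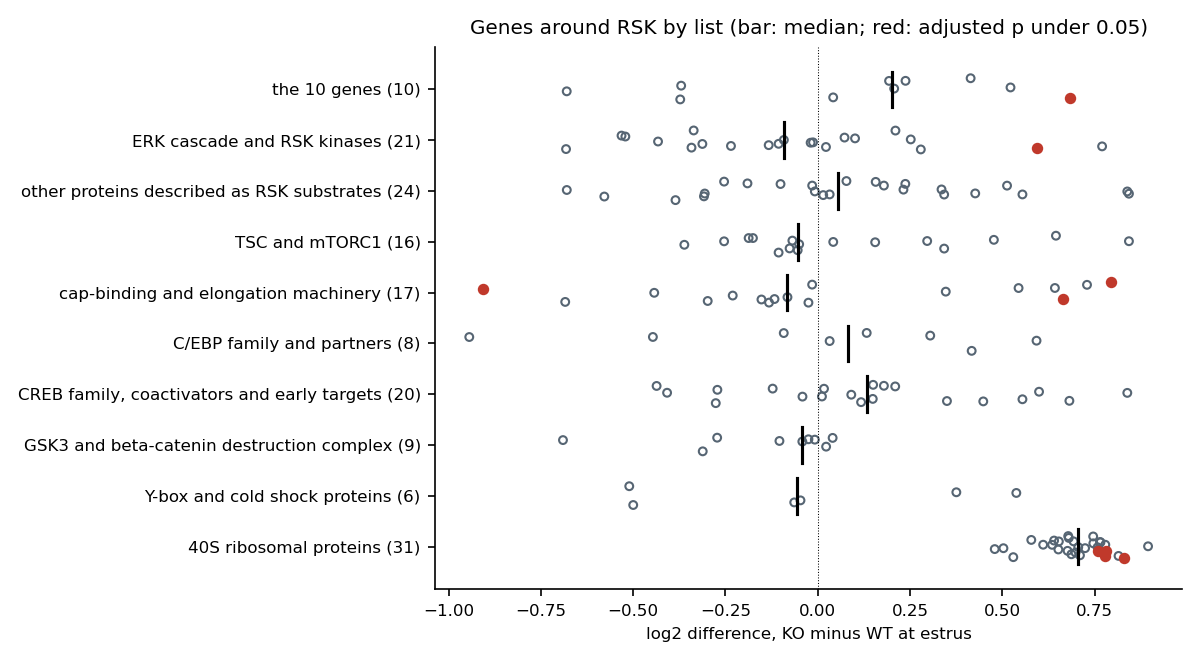
Log2 difference between KO and WT at estrus (x axis) of each tested gene, by list (rows, number tested in brackets), with a bar at the list median and red points for genes that passed the limma test. The 40S genes lie together at 0.48 to 0.89, while the other lists lie on both sides of 0.

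Between stages in KO, 8 of the 143 listed genes were higher and 12 lower at estrus (13.99%, against 16.6% of all). Those lower included Sos2, the paralog of Sos1 (-1.14 ± 0.28, limma adjusted p = 0.020), Shc1, the adaptor upstream of Sos1 (-0.63 ± 0.17), and Tsc1, the partner of TSC2 (-0.68 ± 0.17). Trib3 (-1.504 ± 0.27) and Cebpg (-0.79 ± 0.16) of the C/EBP list were lower. So were Apc (-1.03 ± 0.28) and Axin1 (-0.80 ± 0.21), scaffolds of the beta-catenin destruction complex. Fbxw11 (-0.95), Eif4g2 (-0.80), Eif4e (-0.57) and Epha2 (-0.79) were also lower. Higher at estrus were Bad, a death agonist that RSK phosphorylation inactivates (0.87 ± 0.15), Pde4b, a cAMP phosphodiesterase (0.99 ± 0.22), Mapk3 (0.61 ± 0.16) and 5 of the 31 40S genes, among them Rps4x, Rps19 and Rps15 (0.73, 0.66 and 0.66). In the other 4 comparisons, 0 of the 143 passed the limma test.

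The profiles most like those of the called genes were found over the 10 libraries among 11913 genes with a mean of at least 50, as the root mean square difference of centred log2 values. For Cebpb the 4 nearest were Mpg (0.116), 2310039H08Rik (0.120), Smim4 (0.120) and 1110038F14Rik (0.127). Mpg, a DNA glycosylase, had 321, 296 and 313 counts at WT estrus and 476, 396 and 541 at KO estrus, with KO estrus 3 the highest as for Cebpb. For Eef2k they were Aurka (0.133), Cdpf1 (0.166), Mccc2 (0.168) and Slc26a10 (0.168). Aurka, a mitotic kinase, had 282, 390 and 358 counts at KO estrus and 205 and 169 at KO diestrus. These genes were selected for their likeness, so their values are a description.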

How the data were processed

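Per the submitters' processing notes, the authors used STAR, HTSeq and DESeq2 with mm10. Versions and strand setting are not given in the sources used here. Each deposited value is a score, a read count divided by a library factor and rounded to a whole number by the authors, with no correction for length. Dividing factors of 0.837 to 1.18, read from the spacing of whole numbers, give the estimated reads assigned to genes. Positions, exonic lengths and GC content came from GENCODE M21 (GRCm38).

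limma 3.58.1 (R 4.3.3) was fitted to log2(value + 1) of the 15180 genes with a mean of at least 10, with 1 mean per group over all 10 libraries and the spread modelled as a trend of expression level. Tests were two-sided with Benjamini-Hochberg adjustment over all tested genes, at a threshold of 0.05. Groups of 2 libraries borrow their spread from the others. The fit was also run on simulated counts. These had the same setting of the spread for every gene and no trend on length, so that run does not test these features of the libraries. Replicate numbers were not used to pair the libraries in this fit. Figures used Python 3.11.15 and matplotlib 3.10.9.

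The 10 genes, the lists and the tests were chosen with earlier results of these data known. The text names all 10 genes, up to 4 called genes per list and comparison (or the 2 of highest mean in a list with no estrus call), and the 4 genes nearest in profile to each called member. Values of 2 listed genes that the rule would name are not reported here. The alternatives were other pseudocounts, filters and scalings, no trend of the spread, library weights, a replicate block, the compared groups alone, removal of the length and GC trend, and each library left out.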

Additional observations from a re-analysis of the deposited data

How the results depend on the processing

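The number of the 10 genes called at estrus was 1. It was 0 with no filter on low values, without the trend of the spread, with library weights, with the compared groups alone and with the length and GC trend removed. It was also 0 without KO estrus 1 and 3 together, chosen after seeing the data, where the remaining library's spread was borrowed from the other groups. It was 2 with quantile normalization (Eif4b and Cebpb) and 2 with the replicate block (Creb1 and Cebpb). With 1 library left out it ran from 0 to 1. Between stages in KO the number was 2. It was 0 with no filter, 0 without the trend of the spread, 4 with library weights, 1 with the compared groups alone, 0 without KO estrus 1 and 3 together, and 0 to 5 with 1 library left out. The causes were not tested. In the other 4 comparisons the number stayed 0 under every alternative run. Over all tested genes the count at estrus was 637 as reported, 89 with no filter, 44 without the trend of the spread, 229 with library weights, 996 with the replicate block, 23 with the compared groups alone, 201 with the length and GC trend removed, 67 to 910 with 1 library left out, and 0 without KO estrus 1 and 3 together (1903 at an unadjusted limma p under 0.05). Between stages in KO it was 2524 as reported, 1626 with no filter, 3884 with library weights, 1386 with the length and GC trend removed, 197 without KO estrus 1 and 3 together, and 39 to 2914 with 1 library left out. The averaged difference and the interaction have no fit with compared groups alone, since they use all 4 groups.

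The difference of Rps6 between stages in KO was -0.0215 with the length and GC trend removed. Signs also turned with 1 library left out: Gsk3b at estrus ran from -0.25 to 0.26, and at diestrus Cebpb ran from -0.0935 to 0.24, Eif4b from -0.0528 to 0.12 and Rps6 from -0.0029 to 0.10. Same-numbered estrus pairs correlated at 0.03 to 0.19 in their deviations, 1 of 3 above 0.1. Over all groups, same-numbered pairs ran from -0.13 to 0.19 and the others from -0.15 to 0.13. With so few libraries these values cannot decide whether the numbers pair the libraries.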
